A study of Mus musculus and Rattus norvegicus with 32 samples.

Results

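The breakdown of the branched-chain amino acids leucine, isoleucine and valine was followed through 10 genes. These were the transaminases Bcat1 and Bcat2, the subunits Bckdha, Bckdhb and Dbt of the branched-chain keto acid dehydrogenase (BCKDH) complex, its kinase Bckdk and its phosphatase Ppm1k, and Ivd, Mccc1 and Mccc2 of the leucine branch. They were found by gene symbol in the 4 deposited count tables. All 10 were present among the 55487 genes of each mouse table and the 32883 genes of the rat table, and all 10 passed the filter on low counts in each table.

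Branched-chain amino acids are broken down in mitochondria. A transaminase first moves the amino group away, the BCKDH complex then commits the resulting keto acids to oxidation, and separate branches carry its products on to acetyl-CoA, acetoacetate and propionyl-CoA. The kinase BCKDK switches the complex off by phosphorylating it, and the phosphatase encoded by Ppm1k switches it on again. Reduced expression of this pathway and accumulation of its keto acids are known from failing hearts, and the transcription factor KLF15 is a known activator of its genes in heart muscle.

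RNA was sequenced from hearts of C57BL/6 mice in 6 groups and from neonatal rat ventricular cardiomyocytes (NRVMs, Sprague Dawley, postnatal day 2) in 2 groups, with 4 libraries in each. METTL5 is a methyltransferase that modifies ribosomal RNA, and the study asked how its loss or gain affects the growth of the heart under stress. At 1 month the mice were METTL5-KO or control. At 3 months, and 4 weeks after transverse aortic constriction (TAC), a narrowing of the aorta that overloads the left ventricle, they were METTL5-cKO or control, with floxed METTL5 exons removed by Cre from the Myh6 promoter, which is active in cardiomyocytes. The cKO therefore leaves METTL5 in the other cells of the heart. The controls are labelled Ctrl and are littermates in the study. Whether they carried Cre or the floxed alleles is not given in the sources used here, and the titles of the TAC controls name no operation. The age label of the TAC hearts is 3 months, and no sham-operated hearts were sequenced in the samples used here. NRVMs received an adenovirus with the human METTL5 coding sequence (AdMETTL5) or with GFP (AdGFP), and all cultures were given 20 μM phenylephrine (PE), a hypertrophic agonist, for 24 h. The cells were pre-plated to remove fibroblasts, but the cultures still expressed fibroblast markers, with values given below. Nothing used here ties a library to an animal or a culture, so p-values measure the spread between these samples.

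Expression is given as CPM, edgeR's normalized count relative to the TMM-scaled library size. Total counts were between 14324700 and 21804907 per library. In NRVMs they were 17344430 to 18085339 with AdGFP and 14324700 to 14642431 with AdMETTL5, without overlap. The count of the whole Mettl5 gene did not separate the genotypes (log2 fold changes 0.22 at 1 month, -0.18 at 3 months and -0.04 after TAC, adjusted p = 0.973, 0.884 and 0.874 in edgeR's quasi-likelihood test), but a whole-gene count does not measure the floxed exons alone and so does not check the deletion. The mouse groups are taken from their labels, and the human sequence delivered to the rat cells need not be counted under the rat gene. Cardiomyocyte markers (Myh6, Tnnt2 and 8 others) summed to between 33383.7 and 49976.2 CPM in the hearts of 3 months and after TAC. All 6 adipocyte and all 5 skeletal muscle markers had group means under 1 CPM there.

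A gene was called when edgeR's quasi-likelihood test gave it an adjusted p under 0.05, by Benjamini-Hochberg over all genes tested, and the study's further limit of an absolute log2 fold change over 1 is counted beside it. SE is the standard error of a log2 fold change, and the libraries of each group carry the numbers 1 to 4 in the order of the numbers in their column names.

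In GRCm38 the genes lie on 6 chromosomes. Bckdha (ENSMUSG00000060376, chromosome 7 from 25629946 to 25658981, minus strand), Bcat2 (ENSMUSG00000030826, chromosome 7 from 45570153 to 45589711, plus strand) and Bckdk (ENSMUSG00000030802, chromosome 7 from 127904082 to 127910221, plus strand) share a chromosome but are not neighbours. Bckdhb (ENSMUSG00000032263) lies on chromosome 9 from 83925145 to 84124240, Dbt (ENSMUSG00000000340) on chromosome 3 from 116513070 to 116549981, Ppm1k (ENSMUSG00000037826) on chromosome 6 from 57506502 to 57535468, and Bcat1 (ENSMUSG00000030268) on the same chromosome from 144993835 to 145076184. Of the leucine branch, Ivd (ENSMUSG00000027332) lies on chromosome 2 from 118861954 to 118882909, Mccc1 (ENSMUSG00000027709) on chromosome 3 from 35959312 to 36000678 and Mccc2 (ENSMUSG00000021646) on chromosome 13 from 99948530 to 100015639. Of the 1899 exon bases of Bckdha, 1171 are also exon of B3gnt8 on the other strand, and Bcat1, Bcat2 and Mccc1 share shorter stretches with antisense genes. The strand of the libraries is not stated, so reads from these stretches cannot be told apart.

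The promoters of Bckdhb, Ppm1k and Mccc2, genes that fell together after TAC in METTL5-cKO hearts, are shown as the 250 bases before their RefSeq start sites (GRCm38.p6), 5′ to 3′ on the strand of the gene. Capitals mark the letters CCACCC, or GGGTGG for a match on the other strand, which Kruppel-like factors such as KLF15 can bind, and of these 3 stretches only that of Bckdhb holds a match. The windows are chr9:83924887-83925136 (plus strand), chr6:57535488-57535737 (minus strand) and chr13:100015640-100015889 (minus strand).
Bckdhb: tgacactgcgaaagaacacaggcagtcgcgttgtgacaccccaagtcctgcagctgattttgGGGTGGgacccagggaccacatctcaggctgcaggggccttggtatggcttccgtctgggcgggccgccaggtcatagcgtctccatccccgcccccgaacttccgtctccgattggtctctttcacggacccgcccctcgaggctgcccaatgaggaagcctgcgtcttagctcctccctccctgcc
Ppm1k: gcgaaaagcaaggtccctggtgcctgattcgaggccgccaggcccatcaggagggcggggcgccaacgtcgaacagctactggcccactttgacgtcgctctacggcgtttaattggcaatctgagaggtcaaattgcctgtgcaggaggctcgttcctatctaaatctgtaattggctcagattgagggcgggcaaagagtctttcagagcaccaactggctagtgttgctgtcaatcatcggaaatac
Mccc2: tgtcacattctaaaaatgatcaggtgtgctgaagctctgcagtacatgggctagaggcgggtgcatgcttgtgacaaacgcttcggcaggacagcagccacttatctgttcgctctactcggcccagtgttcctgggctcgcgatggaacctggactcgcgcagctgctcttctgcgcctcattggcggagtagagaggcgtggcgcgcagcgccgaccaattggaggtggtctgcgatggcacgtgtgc
RefSeq gave 12 promoter windows, of 250 bases before to 50 after a start, for 9 of the 10 genes. CCACCC, searched on both strands, was in 4 of these 12 windows (1 each of Bckdhb, Ivd, Mccc1 and Bcat2), a share near that of all 32851 promoter windows, 31.5%. TCAAGGTCA, the extended site of estrogen-related receptors, which switch on mitochondrial genes, was in 0 of the 12 windows and in 0.423% of all windows. In Ivd the match starts 61 bases before the start site (chr2:118861921-118861950) and in Mccc1 it starts 72 bases before (chr3:36000733-36000762, minus strand), as these stretches of 30 bases show.
Ivd: gctactgaagccCCACCCcctccctgattg
Mccc1: acagttcactccCCACCCcccaggcacatg
A match of 6 letters is a description of the window and not a binding site.

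Per kilobase of annotated exon, Bckdha had the highest level of the 10 genes and Bcat1 the lowest. The length counts every exon annotated for a gene, 10952 bases for Mccc1 and 1899 for Bckdha. It is not the length of the transcripts expressed, so the order depends on the annotation. Reads from the 1171 bases that Bckdha shares with B3gnt8 cannot be told apart. In the 3-month control hearts Bckdha, the E1 alpha subunit of BCKDH that its kinase phosphorylates, had 94.6 ± 6.24 CPM per kilobase (SD, n = 4). Ivd, the dehydrogenase that acts on the product BCKDH makes from leucine's keto acid, followed with 38.2 ± 5.598, and Bckdhb, the E1 beta subunit, with 23.1 ± 1.95. The libraries of these genes did not overlap. Bcat2 (16.4 ± 0.840), Mccc2 (16.2 ± 0.787) and Bckdk (15.8 ± 0.924) lay next to each other with overlapping libraries. So did Dbt (8.33 ± 1.90), Ppm1k (5.98 ± 1.44) and Mccc1 (5.39 ± 0.573). Bcat1, the cytosolic transaminase, was at 0.0616 ± 0.0364. Bckdha stayed first, Ivd in the place after it and Bcat1 last in all 6 mouse groups. In the METTL5-cKO hearts after TAC Bckdhb stood at place 5 (12.1 ± 2.67) and Ppm1k at place 9 (2.96 ± 0.368), with libraries that overlapped those of Mccc2 for the former and of Mccc1 for the latter.

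**Figure D1:**
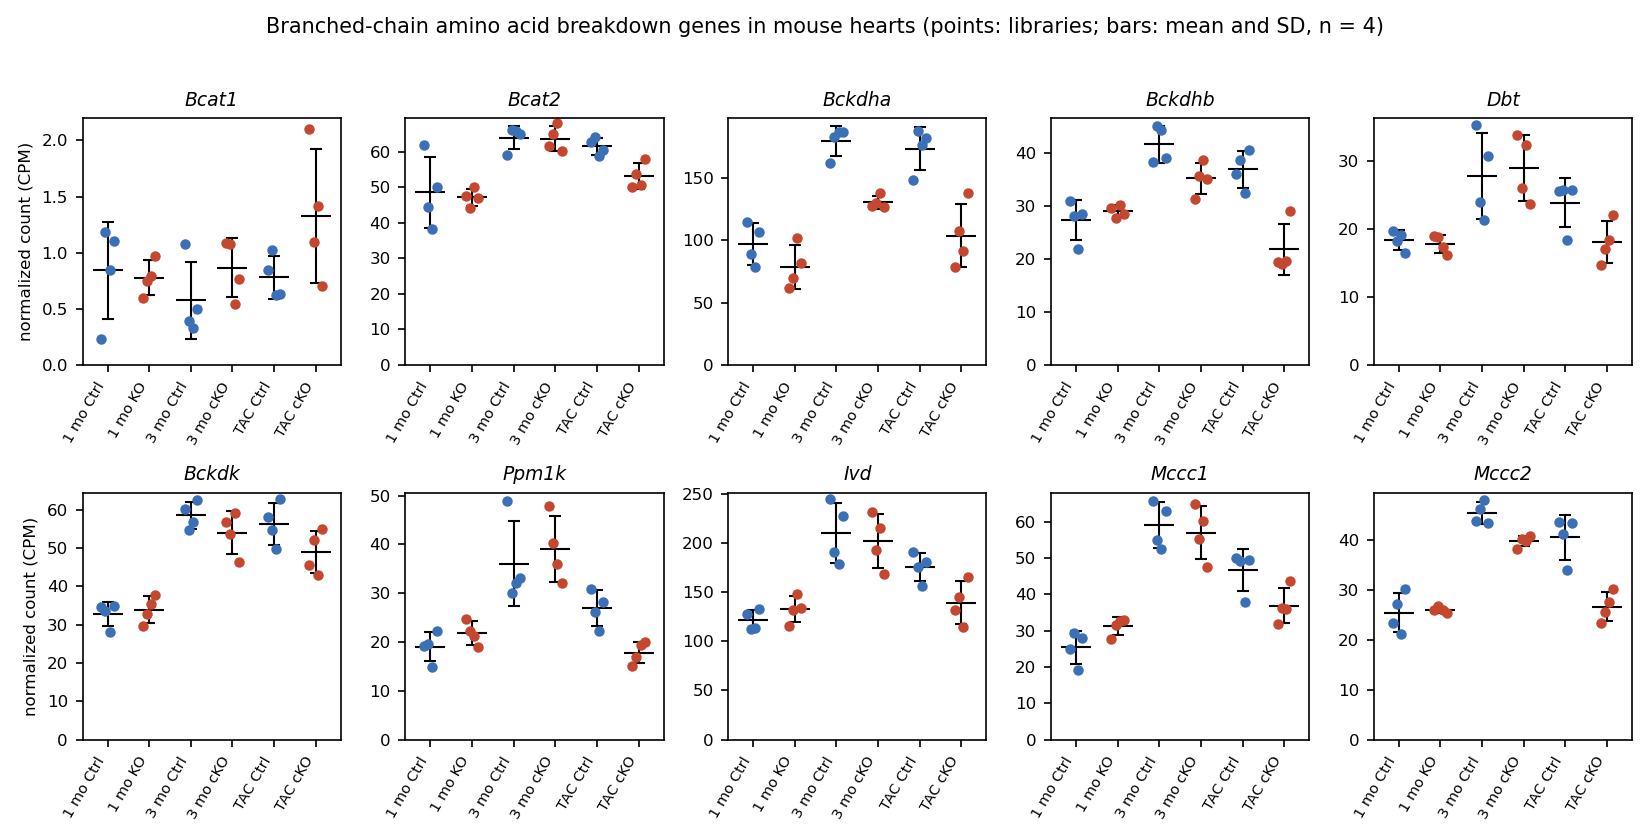
Normalized counts (CPM, linear axes from 0) of the 10 genes in the 24 mouse hearts, by group; points are libraries and bars give the mean and SD (n = 4). After TAC the METTL5-cKO libraries lie below all control libraries for Bcat2, Bckdha, Bckdhb, Ppm1k and Mccc2, while at 1 month the groups overlap for every gene.

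At 1 month no difference was detectable between METTL5-KO and control hearts for any of the 10 genes. edgeR called 0 of them, against 0.00612% of all 16329 genes tested. At an unadjusted p under 0.05 the count was also 0 (4.57% of all genes), as it was with DESeq2. The groups overlapped for every gene, while they did not for 3.01% of all genes. Log2 fold changes ran from -0.30 for Bckdha to 0.30 for Mccc1, a subunit of methylcrotonyl-CoA carboxylase in the leucine branch, with a median of 0.04 against -0.01 over all genes. Bckdha had 114.9, 88.6, 78.2 and 106.8 CPM in the control hearts and 62.0, 69.4, 102.0 and 81.8 in the METTL5-KO hearts. The 95% interval of its log2 fold change was -0.71 to 0.10, and that of Dbt, the E2 core subunit of BCKDH, was -0.26 to 0.18. In counts simulated from the 1-month libraries, edgeR called 13 of 100 genes changed 1.5-fold and 64 of 98 changed 2-fold. Smaller differences could thus go uncalled.

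At 3 months Bckdha was the member with the clearest separation of the genotypes, without passing the threshold. It had 162.1, 182.6, 187.0 and 186.8 CPM in the control hearts and 127.5, 129.9, 138.0 and 126.5 in the METTL5-cKO hearts. Every METTL5-cKO library thus lay below every control library. The log2 fold change was -0.46 (SE 0.0805, 95% interval -0.64 to -0.28), with an adjusted p = 0.147 in edgeR's quasi-likelihood test. DESeq2's Wald test gave it an adjusted p = 2.52e-06, the exact two-sided permutation test gave p = 0.0286, the smallest that 4 against 4 libraries allow, and over the edgeR alternatives that leave out 1 library the adjusted p was between 0.0977 and 0.500. B3gnt8, the gene on its other strand, had a mean of 4.77 CPM in this table and a log2 fold change of 0.52 (SE 0.543).

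edgeR called 0 of the 10 genes at 3 months, against 0.0732% of all 16391 genes tested, and DESeq2 called 1, Bckdha. Unadjusted p-values under 0.05 were found for 3 genes, Bckdha, Bckdhb and Mccc2, against 7.05% of all genes. The groups did not overlap for Bckdha and for Mccc2, the beta subunit of methylcrotonyl-CoA carboxylase, against 4.23% of all genes. Mccc2 had 43.7, 46.2, 48.1 and 43.4 CPM in the control hearts and 38.3, 40.2, 39.8 and 40.8 in the METTL5-cKO hearts, a log2 fold change of -0.19 (SE 0.0738, adjusted p = 0.637). Bckdhb had a log2 fold change of -0.24 (SE 0.0957, adjusted p = 0.638) and overlapping groups. The other 7 genes lay between -0.11 for Bckdk and 0.58 for Bcat1. Bcat1 rested on few counts, since its level in these hearts was 0.574 ± 0.340 CPM in controls and 0.866 ± 0.265 in METTL5-cKO (SD, n = 4). The median over the 10 genes was -0.05, and 0.00071 over all genes tested. Summed cardiomyocyte markers were at 46724.1 to 49976.2 CPM in these controls and 41781.6 to 46716.6 in METTL5-cKO hearts, narrowly without overlap. Their log2 fold changes were below 0 for 10 of 10 (median -0.10). Fibroblast markers summed to 418.7 to 565.5 and 517.0 to 762.1 CPM, with log2 fold changes above 0 for 8 of 8 (median 0.51). Macrophage marker sums also did not overlap, with 99.955 to 125.2 CPM in controls and 129.3 to 169.0 in METTL5-cKO hearts. Their log2 fold changes were above 0 for 7 of 7 (median 0.42). Endothelial sums were 513.0 to 803.1 and 405.7 to 620.9 CPM, with log2 fold changes below 0 for 6 of 6 (median -0.43). Unadjusted p-values were under 0.05 for 6 of 8 fibroblast, 5 of 7 macrophage and 3 of 6 endothelial markers and 0 of 10 cardiomyocyte markers, and the smallest adjusted p in edgeR's fit across all genes was 0.184, for the endothelial Kdr. The part of these markers in the differences above was not tested.

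After TAC 4 of the 10 genes were lower in METTL5-cKO hearts than in control hearts, 2 subunits of BCKDH, its phosphatase and a subunit of the leucine branch carboxylase. These were Bckdha, Bckdhb, Ppm1k and Mccc2, against 6.10% of all 16340 genes tested that were called lower and 12.7% called in either direction. No member was called higher. None of the 10 passed the study's limit on the fold change, which 2.90% of all genes did. The groups did not overlap for 5 genes, these 4 and Bcat2, against 18.6% of all genes. The median log2 fold change over the 10 genes was -0.37, and -0.0035 over all genes. Scaling by library size alone moved these medians to -0.23 and 0.14 and left 4 genes called.

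Bckdha had 148.4, 187.4, 176.1 and 182.4 CPM in the control hearts after TAC and 78.5, 107.5, 91.6 and 137.7 in the METTL5-cKO hearts. It fell by 0.74 on the log2 scale (SE 0.161, adjusted p = 0.0213 in edgeR's quasi-likelihood test). METTL5-cKO library 4 was the highest of its group and still below the lowest control. B3gnt8 on its other strand had a mean of 5.40 CPM and a log2 fold change of 1.21 (SE 0.563, adjusted p = 0.179), the opposite direction. Bckdhb had 36.1, 38.7, 32.5 and 40.7 CPM in the control hearts and 19.5, 19.1, 19.7 and 29.1 in the METTL5-cKO hearts, and fell by 0.76 on the log2 scale (SE 0.143, adjusted p = 0.0148). For Bckdhb 3 METTL5-cKO libraries lay close together, with library 4 above them and below all controls. Dbt, which holds the complex together, had 25.7, 25.7, 18.5 and 25.8 CPM against 14.7, 17.1, 18.5 and 22.1, a log2 fold change of -0.40 (SE 0.146) that was not called (adjusted p = 0.0966). Its groups overlapped through control library 3.

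Ppm1k, the phosphatase that activates BCKDH, had 30.9, 26.1, 22.2 and 28.3 CPM in the control hearts after TAC and 15.2, 16.9, 19.4 and 19.9 in the METTL5-cKO hearts. It fell by 0.59 on the log2 scale (SE 0.123, adjusted p = 0.0187). The kinase Bckdk had 58.0, 54.8, 49.7 and 62.7 CPM against 45.7, 52.2, 43.0 and 55.0, with overlapping groups and a log2 fold change of -0.20 (SE 0.103, adjusted p = 0.215). The 95% interval of the kinase's log2 fold change was -0.43 to 0.03 and that of the phosphatase -0.87 to -0.32.

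In the leucine branch Mccc2 had 43.6, 41.2, 34.0 and 43.5 CPM in the control hearts after TAC and 23.3, 25.6, 27.6 and 30.1 in the METTL5-cKO hearts. Its fall by 0.61 on the log2 scale (SE 0.107, adjusted p = 0.0130) had the smallest adjusted p of the 10 genes. Its partner Mccc1 had a log2 fold change of -0.34 (SE 0.120, adjusted p = 0.0916), and Ivd had a log2 fold change of -0.34 (SE 0.116, adjusted p = 0.0838). Neither was called, and each had overlapping groups. Among the transaminases, the mitochondrial Bcat2 had 62.7, 64.2, 58.8 and 60.4 CPM against 50.2, 53.7, 50.8 and 58.1. The groups did not overlap (log2 fold change -0.21, SE 0.0717, adjusted p = 0.0803). Bcat1 was at 0.780 ± 0.190 CPM against 1.33 ± 0.595 (SD, n = 4), a log2 fold change of 0.77 (SE 0.331, adjusted p = 0.146) on few counts.

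The number called after TAC depended on single libraries. It was 2 without control library 2 (Bckdhb and Mccc2), 1 without control library 4 and 1 without METTL5-cKO library 2 (Mccc2 in both), and 9 without METTL5-cKO library 4, when Bcat1 was called higher and the others except Bckdk lower. Of the 8 fits that leave out 1 library, Mccc2 was called in 8, with adjusted p-values up to 0.0481. Bckdha was not called without control library 2, 3 or 4 or without METTL5-cKO library 2 or 3. DESeq2 called 6 genes, adding Bcat2 and Ivd. All directions stayed the same in these fits.

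**Figure D2:**
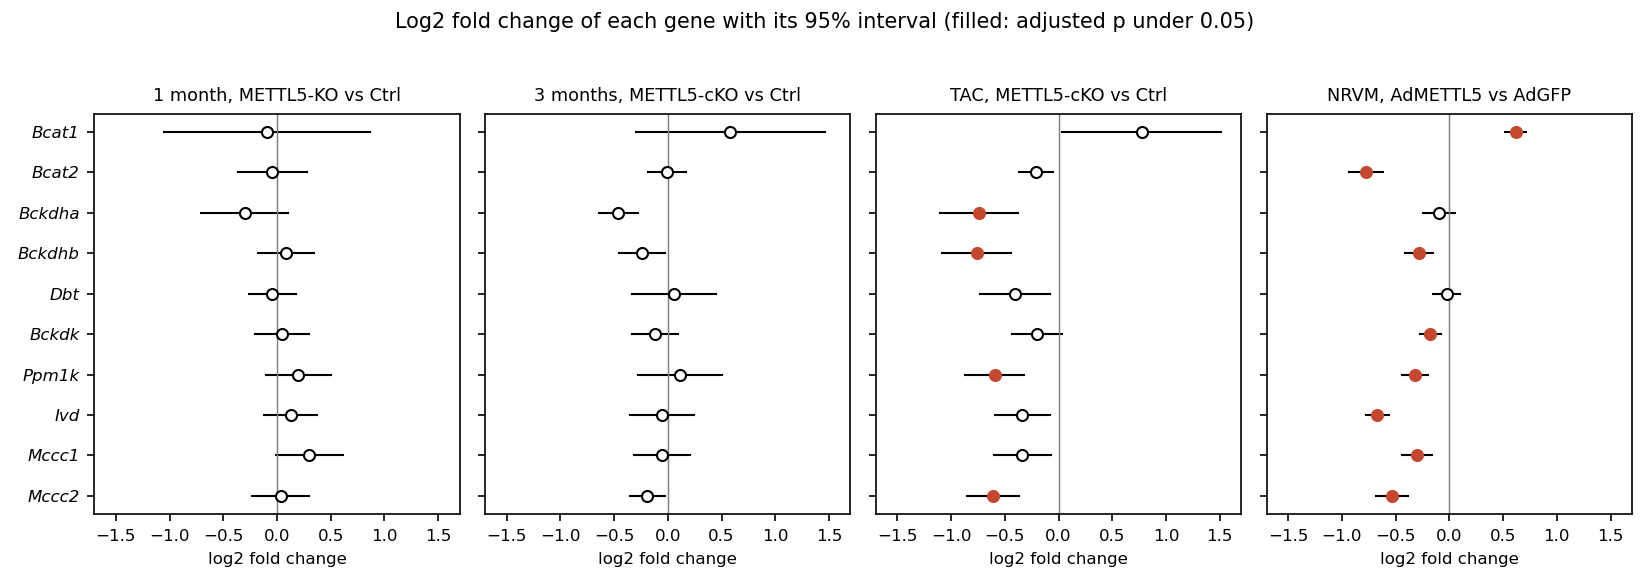
Log2 fold change (x axis) of each of the 10 genes in the 4 tables, with the 95% interval from edgeR; filled points have an adjusted p under 0.05. After TAC 4 genes are filled and lie between -0.76 and -0.59, in NRVMs 8 are filled from -0.78 to 0.62, and at 1 and 3 months none is filled.

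Markers of other cells moved with genotype after TAC. The 8 fibroblast markers summed to between 578.5 and 766.7 CPM in the control hearts and between 924.4 and 2986.7 in the METTL5-cKO hearts, and 7 of the 8 were called higher, with a median log2 fold change of 1.25. The 10 cardiomyocyte markers summed to between 45103.5 and 49839.8 CPM in the control hearts and between 33383.7 and 42825.6 in the METTL5-cKO hearts. Of these markers 3 were called lower, and their median log2 fold change was -0.30. METTL5-cKO library 4, which had the highest level of the 10 genes in its group (561.9 CPM summed, against 413.2 to 474.5 in the other libraries), also had the highest cardiomyocyte sum (42825.6 against 33383.7 to 35277.8) and the lowest fibroblast sum (924.4 against 2013.3 to 2986.7). Endothelial markers were called lower for 4 of 6, macrophage markers higher for 2 of 7 and smooth muscle markers for 0 of 4. Of all genes 6.57% were called higher and 6.10% lower. In bulk RNA fewer cells of a type and less RNA per cell cannot be told apart, and the part of these shifts in the falls above was not tested.

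**Figure D3:**
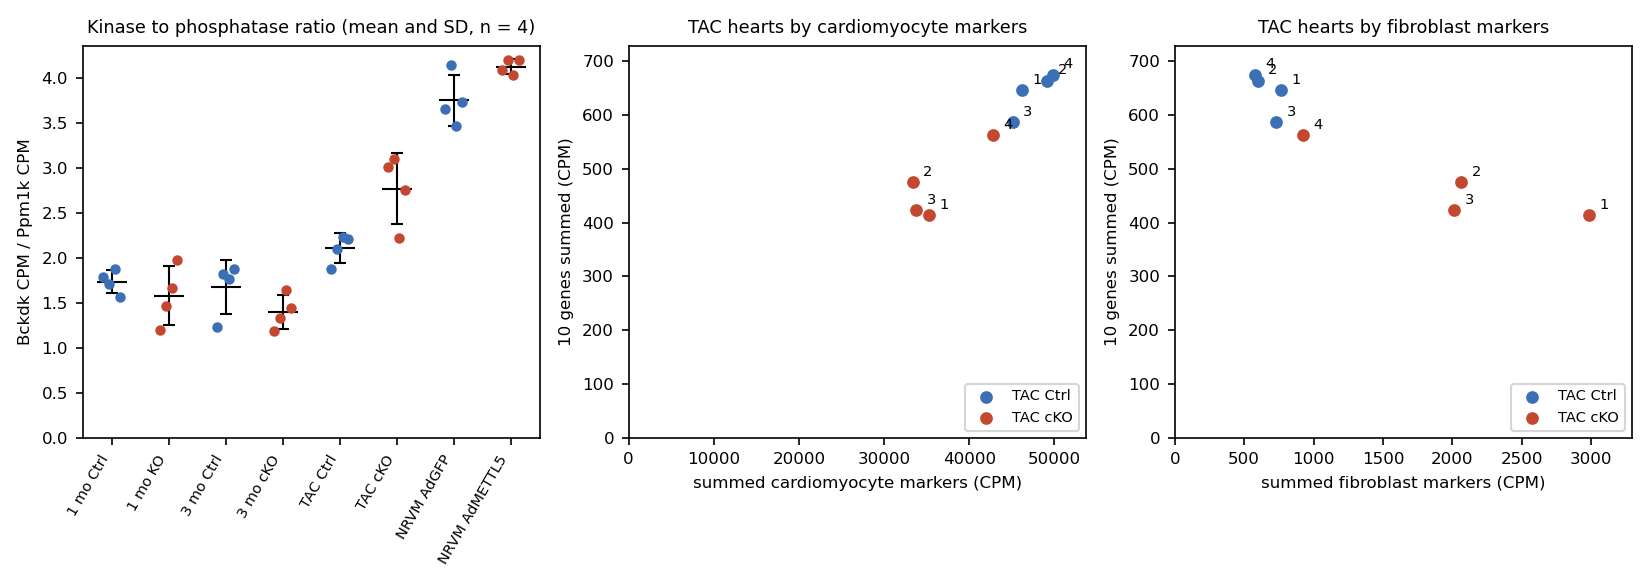
The left panel gives the ratio of Bckdk to Ppm1k in CPM per library by group (points; bars, mean and SD, n = 4). The middle and right panels plot the 10 genes summed (CPM) against summed cardiomyocyte or fibroblast markers (CPM) in the 8 TAC hearts, with library numbers; METTL5-cKO library 4 lies nearest to the controls in both.

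The ratio of the kinase to the phosphatase is given per library as a description, in CPM without correction for length. After TAC it was 1.88, 2.099, 2.24 and 2.22 in control hearts and 3.01, 3.10, 2.22 and 2.76 in METTL5-cKO hearts. The groups overlapped only through METTL5-cKO library 3, at the level of the upper controls. At 3 months it was 1.23 to 1.88 in the controls and 1.19 to 1.64 in METTL5-cKO hearts, and at 1 month 1.57 to 1.88 and 1.20 to 1.98. In NRVMs it was 3.47 to 4.15 with AdGFP and 4.03 to 4.20 with AdMETTL5. The groups overlapped in these 3 tables as well.

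Hearts after TAC were also compared with unstressed 3-month hearts of the same genotype, in a fit of the 16 libraries of both tables, where operation and sequencing table cannot be told apart and each group serves in more than 1 contrast. In the controls edgeR called 0 of the 10 genes, against 0.516% of 17070 genes tested, and DESeq2 also called 0. At an unadjusted p under 0.05 there were 2, Ppm1k (log2 fold change -0.42, SE 0.161) and Mccc1 (-0.34, SE 0.122), against 17.6% of all genes. Still, 9 of the 10 genes had log2 fold changes below 0 in the controls, with a median of -0.17. Fibroblast markers were above 0 for 8 of 8 (median 0.53), macrophage markers for 7 of 7 (0.58) and cardiomyocyte markers for 5 of 10 (0.02). Of the respiratory chain 59 of 67 were above 0 (0.16), and of fatty acid oxidation 15 of 16 were below 0 (-0.13). In METTL5-cKO hearts 7 of the 10 were called lower after TAC, against 8.89% of all genes. Here too 9 of the 10 had log2 fold changes below 0. Bcat2, Bckdhb, Dbt, Ppm1k, Ivd, Mccc1 and Mccc2 fell by 0.25 to 1.12 on the log2 scale. Ppm1k fell most, by 1.12 (SE 0.164, adjusted p = 0.000364 in edgeR's quasi-likelihood test), from 38.9 ± 6.84 to 17.9 ± 2.19 CPM on the shared scale (SD, n = 4). Of the 10 genes only Ppm1k passed the study's limit on the fold change, which 4.84% of all genes did. Bckdha was not called in this contrast (log2 fold change -0.32, SE 0.131, adjusted p = 0.104), nor were Bckdk and Bcat1. Over the fits that leave out 1 library the count ran from 5 (without METTL5-cKO TAC library 1, when Bcat2 and Dbt were not called) to 8 (without METTL5-cKO TAC library 4, when Bckdha was called, log2 fold change -0.48, adjusted p = 0.0046). Bcat2 was also not called without METTL5-cKO library 3 of either table. In this contrast 7 of 8 fibroblast markers (median log2 fold change 1.33), 5 of 7 macrophage markers and 2 of 4 smooth muscle markers were called higher, and of 10 cardiomyocyte markers 3 were called lower and 1 higher. Of all genes 10.2% were called higher in this contrast. The part of these markers in the falls of the 7 genes was not tested. Other mitochondrial genes were also called lower in this contrast. They were 13 of 16 of fatty acid oxidation (median log2 fold change -0.54, as over the 10 genes) and 10 of 15 of the TCA cycle (-0.32). Of the respiratory chain 7 of 67 were called lower (-0.17), near the 8.89% over all genes. Of pyruvate and 2-oxoglutarate dehydrogenase with their kinases and phosphatases 2 of 13 were called lower (-0.19).

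The difference between the genotype effects after TAC and at 3 months was tested by an interaction term. edgeR and DESeq2 each called 0 of the 10 genes, against 0.00586% of all genes in edgeR. Unadjusted p-values under 0.05 were found for 3 genes, against 11.8% of all genes: Ppm1k (difference of log2 fold changes -0.69, SE 0.229, adjusted p = 0.240), Bckdhb (-0.50, SE 0.173, adjusted p = 0.262) and Mccc2 (-0.40, SE 0.123, adjusted p = 0.208). Without METTL5-cKO TAC library 4, edgeR called 2, Bckdhb and Mccc2. For Bckdha the difference was -0.27 with a 95% interval from -0.66 to 0.13. In counts simulated from these libraries, this interaction test called 6 of 100 genes changed 1.5-fold and 46 of 100 changed 2-fold. It could therefore miss differences of the size seen here, and 0 calls do not show equal effects.

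In NRVMs given PE, AdMETTL5 raised Bcat1 and lowered 7 of the other genes compared with AdGFP. The 8 called genes stand against 52.8% of all 15041 genes called in either direction, with 27.1% called higher and 25.7% called lower. The groups did not overlap for these 8 genes, against 48.4% of all genes. None passed the study's limit on the fold change, which 5.85% of all genes did. The median log2 fold change over the 10 genes was -0.29, and -0.0022 over all genes. Scaling by library size alone moves the median of all genes to 0.13 and leaves 5 genes called, Bcat1, Bcat2, Ppm1k, Ivd and Mccc2.

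The transaminases moved in opposite directions in these cells. Bcat1 had 147.0, 143.2, 133.7 and 135.3 CPM with AdGFP and 214.6, 209.4, 222.6 and 212.0 with AdMETTL5, and rose by 0.62 on the log2 scale (SE 0.0453, adjusted p = 4.86e-07 in edgeR's quasi-likelihood test). Bcat2 had 52.5, 46.3, 56.3 and 58.0 CPM with AdGFP and 29.1, 31.5, 30.9 and 32.8 with AdMETTL5, and fell by 0.78 on the log2 scale (SE 0.0725, adjusted p = 3.50e-06). Bcat1 was abundant in the neonatal cultures, which also expressed fibroblast and smooth muscle markers, while the mouse hearts had 0.235 to 2.105 CPM of it. Which of the cultured cells expressed Bcat1 was not tested. No test was made between the species or tables.

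Of the BCKDH subunits only Bckdhb was called in NRVMs. It had 34.0, 30.7, 35.8 and 33.6 CPM with AdGFP and 28.1, 26.8, 26.3 and 29.2 with AdMETTL5 (log2 fold change -0.28, SE 0.0613, adjusted p = 0.00214). For Bckdha the log2 fold change was -0.10 (95% interval -0.25 to 0.05) and for Dbt -0.02 (95% interval -0.15 to 0.10), each with overlapping groups. Bckdk (log2 fold change -0.18, SE 0.0449, adjusted p = 0.00518) and Ppm1k (-0.32, SE 0.0552, adjusted p = 0.000414) were both lower. By library size alone Bckdhb and Bckdk were not called, and the log2 fold changes of Bckdha and Dbt turned positive, to 0.03 and 0.11.

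All 3 genes of the leucine branch were lower with AdMETTL5. Ivd had 77.2, 82.7, 75.1 and 80.5 CPM with AdGFP and 49.3, 50.8, 47.0 and 51.3 with AdMETTL5 (log2 fold change -0.67, SE 0.0499). Mccc2 had 52.6, 50.1, 45.4 and 47.7 CPM against 36.2, 35.9, 30.5 and 32.4 (log2 fold change -0.54, SE 0.0681), and Mccc1 had a log2 fold change of -0.30 (SE 0.0654, adjusted p = 0.00206). Every AdMETTL5 library lay below every AdGFP library for each of them. Leaving out any 1 library left all 8 calls in place.

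**Figure D4:**
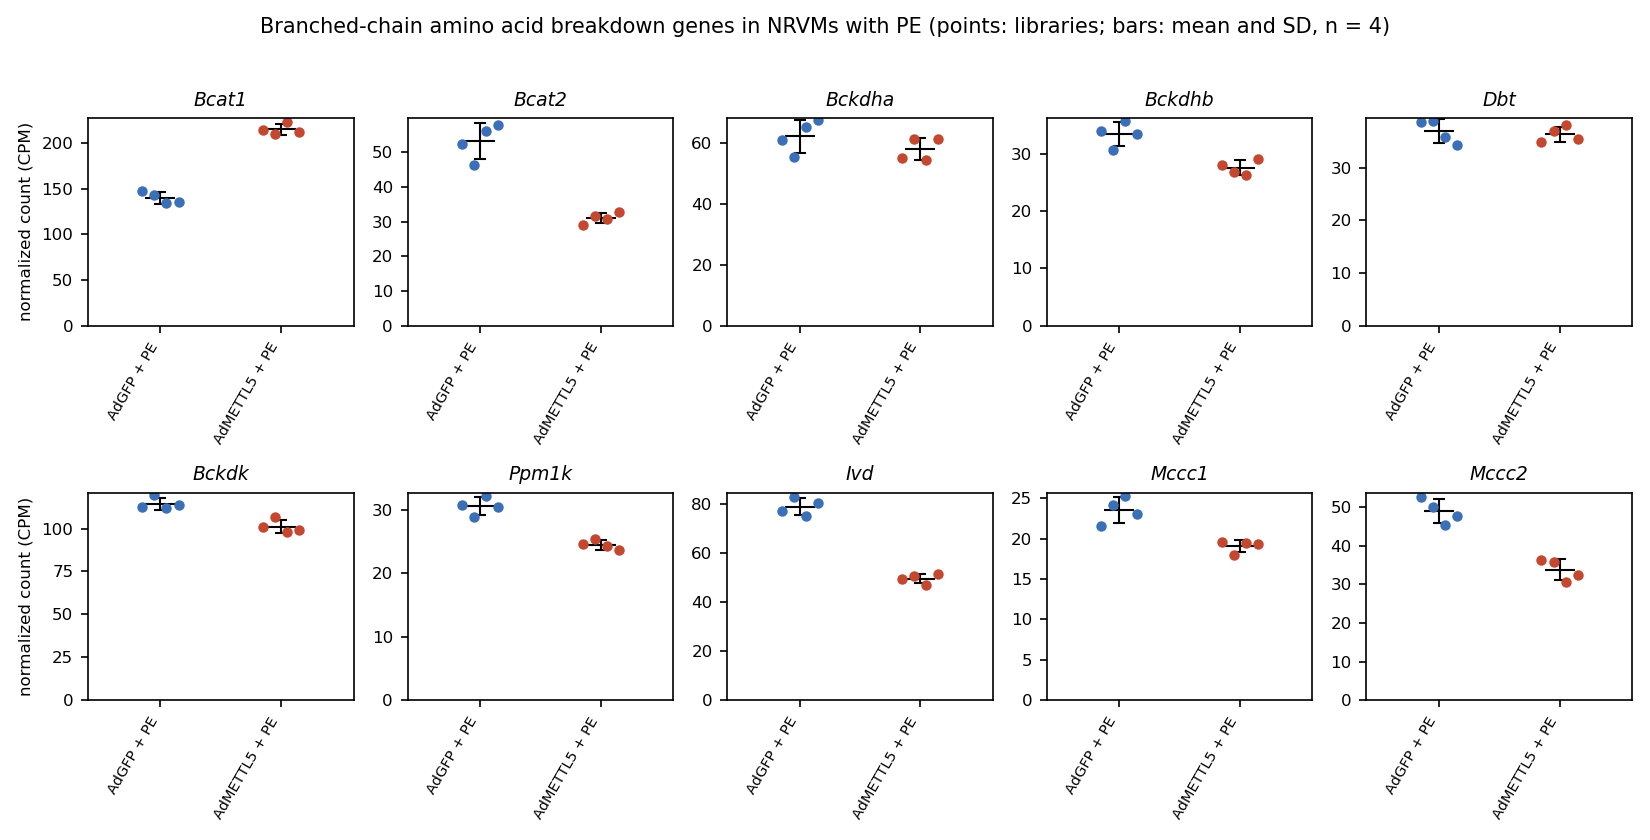
Normalized counts (CPM, linear axes from 0) of the 10 genes in NRVMs with PE and AdGFP or AdMETTL5; points are libraries and bars give the mean and SD (n = 4). Bcat1 is higher with AdMETTL5, Bckdha and Dbt overlap, and the other 7 genes are lower without overlap.

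Markers of the cultured cells moved as well. All 9 cardiomyocyte markers tested were called lower with AdMETTL5, with a median log2 fold change of -1.14, and their sum was 33988.4 to 43124.5 CPM with AdGFP and 14810.3 to 16563.5 with AdMETTL5. Fibroblast markers were called lower for 6 of 7 tested, with sums of 11531.3 to 12143.7 and 9111.8 to 10041.8 CPM. Endothelial markers were called higher for 1 of 4 tested, smooth muscle markers higher for 2 of 4 and macrophage markers lower for 2 of 4. Of all genes 27.1% were called higher and 25.7% lower, and the endothelial count is near that share. The part of these markers in the changes of the 10 genes was not tested.

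Another 25 genes of amino acid transport, the later branches and their control were counted in the same way. At 1 and 3 months edgeR and DESeq2 called 0 of them. At an unadjusted p under 0.05 there was 1 gene at 1 month (Slc7a8), and 4.57% of all genes. At 3 months there were 2 (Slc7a5 and Slc43a1), and 7.05% of all genes, so both counts are near the share over all genes. After TAC 7 were called. The transport genes Slc43a2 (log2 fold change 0.62, SE 0.135, adjusted p = 0.0218), Slc3a2 (0.46, SE 0.102, adjusted p = 0.0223) and Slc7a5 rose in METTL5-cKO hearts, against 6.57% of all genes called higher. Mmaa (-0.54, SE 0.127, adjusted p = 0.0272), Pccb (-0.37, SE 0.0875, adjusted p = 0.0274), Mcee and Mmab, which carry propionyl-CoA on to succinyl-CoA or handle its cobalamin cofactor, fell. Of all genes 6.10% were called lower. The median over the 25 was -0.23. By library size alone 3 were called higher and 2 lower, with no filter on low counts 2 were called, and over the fits that leave out 1 library the count ran from 0 (without control library 2 or 4, or METTL5-cKO library 2) to 11 (without METTL5-cKO library 4).

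Klf15, Dld, Hibadh and Slc25a44 were not called between genotypes in the mouse hearts. Klf15 had 29.8, 26.7, 16.1 and 25.7 CPM in control hearts after TAC and 26.8, 25.8, 21.8 and 25.5 in METTL5-cKO hearts (log2 fold change 0.02, SE 0.167). Dld, the E3 subunit that BCKDH shares with other complexes, had a log2 fold change of -0.24 (SE 0.125), Hibadh of the valine branch -0.26 (SE 0.106) and Slc25a44, a mitochondrial carrier of branched-chain amino acids, 0.07 (SE 0.115). In NRVMs 19 of the 25 were called, 2 higher and 17 lower, with a median of -0.55. Of all genes 52.8% were called there, 27.1% higher and 25.7% lower. Klf15 had 21.4, 17.6, 21.5 and 20.9 CPM with AdGFP and 12.2, 13.3, 10.96 and 13.6 with AdMETTL5, a fall by 0.70 on the log2 scale (SE 0.0892). Dld (-0.43, SE 0.0481) and Hibadh (-0.55, SE 0.0598) were lower and Slc25a44 was higher (0.42, SE 0.0724). The others with the smallest adjusted p were Acat1 (-0.63), Pccb (-0.71), Aldh6a1 (-0.75), Hibch (-0.95) and Hsd17b10 (-0.56) of the later branches, which were lower, and Slc7a5 (0.44), a leucine transporter subunit, which was higher.

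**Figure D5:**
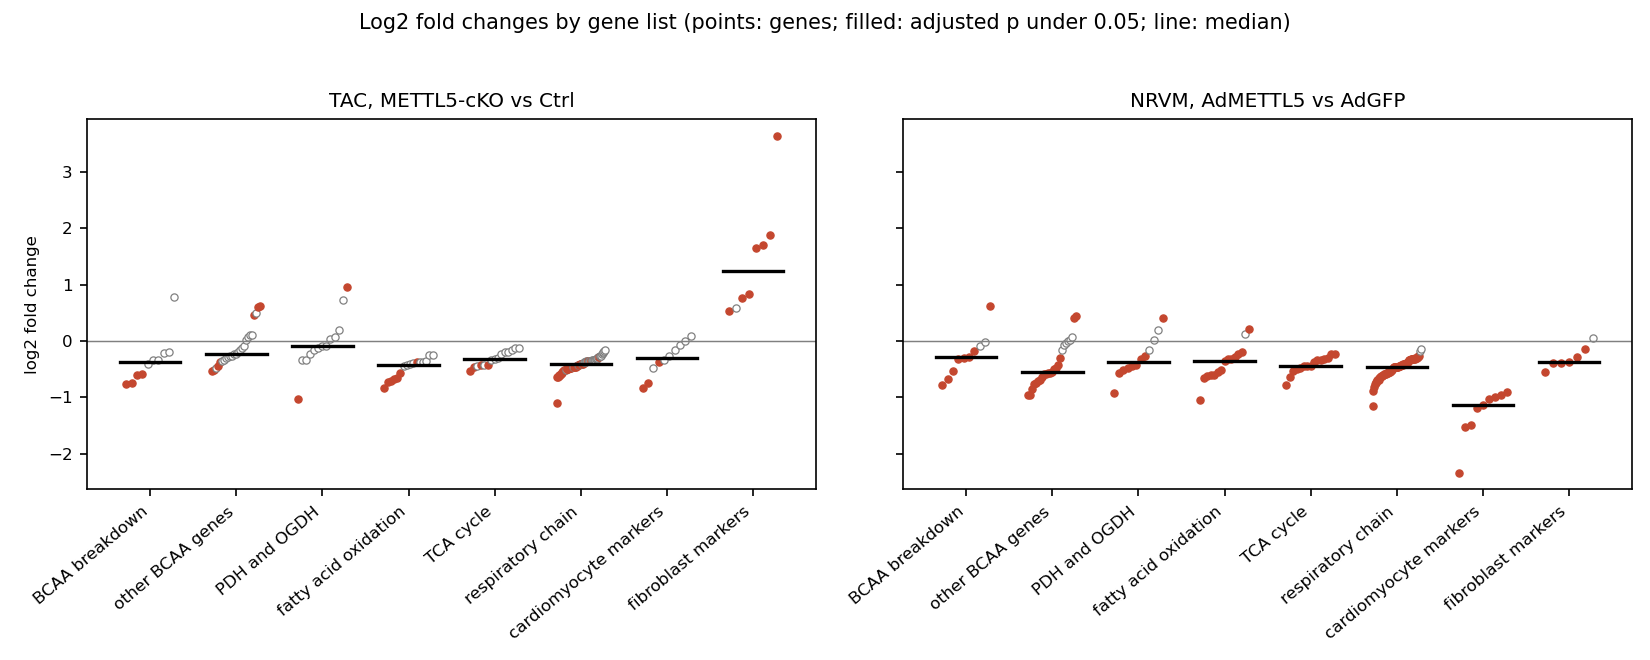
Log2 fold changes (y axis) of the genes of 8 lists after TAC (left) and in NRVMs (right); points are genes, filled where the adjusted p is under 0.05, and lines are medians. After TAC the medians of the 10 genes, of fatty acid oxidation, the TCA cycle and the respiratory chain lie between -0.42 and -0.32, and the fibroblast markers lie above 0.

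Other mitochondrial genes were lower in the same comparisons. After TAC 37 of 67 subunits of the respiratory chain were called lower (median log2 fold change -0.41), as were 7 of 16 genes of fatty acid oxidation (-0.42) and 4 of 15 of the TCA cycle (-0.32), and 0 of these were called higher, against 6.10% of all genes called lower. Of 13 genes of pyruvate and 2-oxoglutarate dehydrogenase and their kinases and phosphatases, the complexes most like BCKDH, 1 was called higher and 1 lower (median -0.09). In NRVMs 63 of 65 respiratory chain genes (-0.46), 15 of 15 TCA cycle genes (-0.44), 13 of 15 fatty acid oxidation genes (-0.35) and 8 of 12 genes of the related complexes (-0.38) were called lower, against 25.7% of all genes. In NRVMs 1 gene of fatty acid oxidation and 1 of the related complexes were called higher. No test was made between these lists and the 10 genes.

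Within groups, pairs of the 10 genes varied together to differing degrees. Over the 24 mouse hearts, after taking off each group mean of log2 CPM, Pearson's r over the 45 pairs had a median of 0.39 and ran from -0.63 (Bcat1 with Bcat2) to 0.82 (Bckdk with Mccc1), with 14 pairs over 0.5 and 6 below 0. All 6 pairs below 0 held Bcat1, which rested on few counts in the hearts. The lowest pair without it was Bckdha with Ppm1k (r = 0.03). No r was computed for pairs of other genes. These hearts share libraries between genes, and depth and cell makeup enter every pair. Klf15 went most with Dbt (r = 0.73), Ppm1k (0.73) and Ivd (0.66), and with Bckdha its r was -0.11. Over 15543 genes the 5 that varied most like Mccc2, the member with the smallest adjusted p after TAC, were Gsta4 (r = 0.84), Adck1 (0.83), Atp5pb (0.82), Atp5pb-ps (0.81) and Atp5b (0.81). Atp5pb and Atp5pb-ps are near-identical copies whose reads can be split between them.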

How the data were processed

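RNA of 32 samples in 8 groups of 4 libraries was measured. The authors aligned reads with HISAT2 and quantified them with StringTie, and the submitters' processing notes name HISAT2 2.0.4, StringTie 2.1.4, DESeq2 1.4.5, GRCm38 and Rnor_6.0. The deposited values are estimated counts per gene, 1 table for each pair of groups, and they are whole numbers, so rounding changed none. Strandedness is not given in the sources used here. Multi-mapped or overlapping reads can be shared between genes in such estimates, which bears on Bckdha and B3gnt8.

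Each table was fitted by itself with edgeR 4.0.16 (R 4.3.3): TMM scaling, filterByExpr with a minimum count of 10 and a minimum total of 15, quasi-likelihood test, Benjamini-Hochberg adjustment over all genes tested. The design had assumed raw counts, and the same test was kept. The 16 hearts of 3 months and TAC were also fitted together. For single genes an exact two-sided permutation test of mean log2 CPM (prior count 2) over all 70 labellings was run. Alternatives were DESeq2 1.42.0, DESeq2 size factors, library size alone, other filters, every fit with 1 library left out, and for the 1-month table a fit with the replicate number as block. Scripts were tested on simulated data.

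Columns of the 1-month table map to single samples and those of the others to a group only. The members and gene lists were chosen with earlier results of these data known. All 10 members were named in every table, and from the further pathway list Klf15, Dld, Slc25a44 and Hibadh, plus up to 6 called genes with the smallest adjusted p. Positions are from GENCODE (GRCm38), and promoters from RefSeq (GRCm38.p6).

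At 1 month the groups carry replicate numbers in the labels. The correlations of same-numbered libraries' deviations were 0.239, 0.120, -0.107 and 0.0782. Between libraries with different numbers they ran from -0.283 to 0.194. These few values cannot decide whether the numbers pair the samples.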

Additional observations from a re-analysis of the deposited data

Results flagged for a closer look

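In 88 groups of 4 values (the 10 genes and the ratio of Bckdk to Ppm1k in 8 groups), 6 held a library whose distance from its nearest neighbour passed Dixon's 95% limit. About 1 in 20 groups is expected to do so by chance. In the 3-month controls Ppm1k was at 48.9 CPM in library 1 and at 30.0 to 33.2 in the others, and the ratio of Bckdk to Ppm1k was 1.23 there and 1.77 to 1.88 in the others. In the TAC controls library 3 had the lowest Dbt, 18.5 CPM against 25.7 to 25.8, and the lowest Mccc1, 37.9 against 49.2 to 49.9. In the METTL5-cKO hearts after TAC Bckdhb was at 29.1 CPM in library 4 and at 19.1 to 19.7 in the others. In NRVMs with AdMETTL5, Mccc1 was at 18.0 CPM in library 2 and at 19.4 to 19.6 in the others.

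For 3 genes every knockout library lay on 1 side of the control mean at 1 month and on the opposite side in a later table. Bckdhb had a log2 fold change of 0.08 at 1 month, -0.24 at 3 months and -0.76 after TAC. Ppm1k had 0.20 at 1 month and -0.59 after TAC, and Mccc1 had 0.30 at 1 month and -0.34 after TAC. At 1 month none of the 3 was called in edgeR's quasi-likelihood test (adjusted p = 0.975, 0.973 and 0.973), and their groups overlapped. The share of all genes that meet this rule was not counted, so the 3 cannot be set against it. The difference between tables was not tested, the mice at 1 month were METTL5-KO and the later ones METTL5-cKO, and age, knockout and table cannot be told apart.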

How the results depend on the processing

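Of 1155 alternative values for 70 gene results, 1096 kept their direction and their side of the threshold, 17 lost the call, 11 gained it and 31 changed sign, all 31 among results that were not called. The cause was not tested. Of the 10 genes, DESeq2 called 1 at 3 months. With the limit on the fold change, 0 were called between genotypes after TAC and 0 in NRVMs. With library size alone 5 were called in NRVMs, and log2 fold changes turned to 0.0464 for Bcat2 and 0.0013 for Mccc1 at 3 months, 0.0341 for Bckdha and 0.11 for Dbt in NRVMs, and 0.000813 for Bckdk in the difference of genotype effects.

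Leaving out 1 library gave 1 to 9 called genes after TAC and 0 to 2 for the difference of genotype effects (2 without METTL5-cKO TAC library 4). Log2 fold changes that changed sign ran, at 1 month, from -0.43 to 0.14 for Bcat1, -0.14 to 0.0946 for Bcat2, -0.00809 to 0.15 for Bckdhb, -0.0174 to 0.11 for Bckdk, -0.0929 to 0.00263 for Dbt and -0.0429 to 0.12 for Mccc2. At 3 months they ran from -0.0467 to 0.0182 for Bcat2, -0.0512 to 0.19 for Dbt, -0.13 to 0.0224 for Ivd and -0.12 to 0.0247 for Mccc1. The range was -0.0960 to 0.0268 for Bckdha in controls after TAC against 3 months, -0.0581 to 0.000292 for Dbt in NRVMs and -0.28 to 0.40 for Bcat1 in the difference of genotype effects.

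With the replicate block at 1 month 0 of the 10 genes were called, as without it. No paired analysis was possible for the other tables because their columns carry no replicate numbers. Counts of Bcat1 in the mouse hearts were 6 to 48 per library, which limits the precision of its values.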

Other observations

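Among the 3-month hearts, library 1 of each genotype stood high for Klf15 and for some of the 10 genes but not for others. Klf15 was at 56.5 CPM in control library 1 and 18.5 to 25.9 in the other controls, and at 47.1 CPM in METTL5-cKO library 1 and 23.1 to 36.4 in the others. Control library 1 also had the highest Ppm1k (48.9 CPM), Dbt (35.4 CPM), Ivd (244.3 CPM) and Mccc1 (65.6 CPM) of its group, and METTL5-cKO library 1 had the highest Ppm1k (47.9 CPM), Dbt (33.9 CPM), Ivd (231.8 CPM) and Mccc1 (64.7 CPM) of its group. Bckdhb was at its group's lowest level in both libraries, 38.3 and 31.4 CPM. These libraries were singled out after their values were seen, and no test was made.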
